A study of Homo sapiens with 48 samples.

Results

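The nuclear-encoded genes of oxidative phosphorylation (OXPHOS) were followed in SW480 cells, an established human colorectal adenocarcinoma line, in which the eIF2B subunit gene EIF2B1 or EIF2B4 was depleted. Members were taken by symbol: every NDUF gene, SDHA to SDHD, and every gene whose symbol starts with UQCR, with COX4 to COX8 or with ATP5. This rule gave 90 of 11145 genes in the table of ribosome-protected fragments (RPFs) and 91 of 11947 in the table of total cytoplasmic RNA, with 90 in both. The additional gene in total RNA was ATP5MGL. Among the RPFs 39 members were counted with complex I, 8 were NDUFAF assembly factors, 4 belonged to complex II, 9 to complex III, 11 to complex IV and 19 to complex V. NDUFA4 was counted with complex I because of its symbol, although its protein is now assigned to complex IV.

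Each line was a pool of SW480 cells transduced with a lentiviral, doxycycline (DOX)-inducible shRNA: non-targeting shCTRL, shEIF2B1 or shEIF2B4. Cells of each line received DMSO (-DOX) or DOX at 1 µg/ml (+DOX), and were harvested after 5 days in 4 separate weeks, which gave 6 groups with n = 4 and 24 lysates. RPFs and total RNA came from the same lysate, giving 48 libraries. DOX also slows the ribosomes of mitochondria, and it was present in all induced groups, so a response is given throughout as the change on induction in a knockdown line minus the change on induction in shCTRL.

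Complex I takes electrons from NADH and complex II takes them from succinate. Complex III passes them to cytochrome c, complex IV hands them to oxygen, and the proton gradient built on the way drives ATP synthesis by complex V. Complexes I, III, IV and V mix subunits from the nucleus with subunits made inside mitochondria, whereas complex II is wholly nuclear-encoded. None of the 13 subunit genes of mitochondrial DNA was in the deposited tables, and they were not analysed here. eIF2B recharges the initiation factor eIF2 with GTP, which cytosolic ribosomes need to start on nearly every mRNA, those of the OXPHOS genes included.

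Values were deposited as regularized log2 counts, so depth was unknown and all differences below are on that log2 scale. They give relative and not absolute amounts, and in bulk lysates fewer cells and less RNA per cell cannot be told apart. Total RNA of EIF2B1 was 8.26 ± 0.09 (SD, n = 4) in -DOX and 7.38 ± 0.26 in +DOX shEIF2B1 cells, a response of -0.67 (SE 0.15, limma, adjusted p = 0.0263). EIF2B4 was 7.18 ± 0.23 and 6.61 ± 0.10 in the shEIF2B4 line, a response of -0.49 (SE 0.14, limma, adjusted p = 0.0634), and its RPF response of -0.48 did not pass (limma, adjusted p = 0.236). Of 7 colorectal epithelial markers 6 were in the tables, with KRT8, KRT18, KRT19, EPCAM and CDX2 between 7.63 and 13.40 in total RNA of uninduced shCTRL cells and CDH1 low at 3.98. None of 6 markers of leukocytes, fibroblasts and endothelium was in the tables. RPF libraries differed between weeks with the share of G or C at the third codon position of the coding sequence (CDS), called GC3. Among the members the deviation of a library correlated positively with GC3 in 11 libraries of weeks 1 and 3 (r = 0.22 to 0.72) and negatively in the 12 libraries of weeks 2 and 4 (r = -0.75 to -0.28). The uninduced shEIF2B4 RPF library of week 3 stood apart with r = -0.45, and the counts of shEIF2B4 calls are therefore also given without it. The week was a block in each fit.

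The members were short and varied widely in GC3. A CDS was found for 87 of the 90, with a median of 414 bases against 1311 bases for all genes of the RPF table. Median GC3 was 56.3% (range 33.3 to 91.2) against 59.7% for all genes. Complex V (50.9%) and the NDUFAF factors (43.4%) had the lowest class medians, and complex IV (60.7%) had the highest. The coding sequences of 8 members are shown here because the RPF responses described below differed along this axis. They are printed 5′ to 3′ on the mRNA strand, whole or for the first 240 bases, with every third-position G or C of a sense codon in capitals.
ATP5MJ: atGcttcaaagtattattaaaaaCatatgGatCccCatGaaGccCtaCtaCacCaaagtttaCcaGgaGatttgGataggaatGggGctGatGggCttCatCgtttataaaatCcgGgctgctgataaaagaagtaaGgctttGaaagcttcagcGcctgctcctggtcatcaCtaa
COX7C: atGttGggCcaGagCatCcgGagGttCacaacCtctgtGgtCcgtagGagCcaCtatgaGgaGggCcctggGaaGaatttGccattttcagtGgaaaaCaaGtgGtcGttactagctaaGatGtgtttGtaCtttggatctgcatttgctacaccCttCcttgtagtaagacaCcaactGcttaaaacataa
ATP5F1E: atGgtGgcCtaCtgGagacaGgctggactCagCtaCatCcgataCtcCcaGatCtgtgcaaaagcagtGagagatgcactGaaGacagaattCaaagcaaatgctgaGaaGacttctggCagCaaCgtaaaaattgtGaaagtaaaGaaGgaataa
NDUFB3: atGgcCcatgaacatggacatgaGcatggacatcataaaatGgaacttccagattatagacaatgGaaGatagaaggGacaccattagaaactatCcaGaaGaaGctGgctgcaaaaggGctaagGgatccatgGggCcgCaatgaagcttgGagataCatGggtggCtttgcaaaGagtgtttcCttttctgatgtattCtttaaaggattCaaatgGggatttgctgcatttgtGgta
NDUFAF8: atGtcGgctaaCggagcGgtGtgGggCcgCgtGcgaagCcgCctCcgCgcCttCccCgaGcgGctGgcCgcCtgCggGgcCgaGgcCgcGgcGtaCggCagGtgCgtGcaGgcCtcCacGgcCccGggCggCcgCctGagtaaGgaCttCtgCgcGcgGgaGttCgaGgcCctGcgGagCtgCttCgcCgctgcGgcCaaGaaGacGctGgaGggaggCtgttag
COX8A: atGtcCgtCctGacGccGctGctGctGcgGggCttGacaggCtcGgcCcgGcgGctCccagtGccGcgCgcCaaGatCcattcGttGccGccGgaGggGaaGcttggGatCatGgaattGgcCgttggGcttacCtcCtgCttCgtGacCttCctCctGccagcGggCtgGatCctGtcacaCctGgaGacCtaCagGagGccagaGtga
NDUFA13: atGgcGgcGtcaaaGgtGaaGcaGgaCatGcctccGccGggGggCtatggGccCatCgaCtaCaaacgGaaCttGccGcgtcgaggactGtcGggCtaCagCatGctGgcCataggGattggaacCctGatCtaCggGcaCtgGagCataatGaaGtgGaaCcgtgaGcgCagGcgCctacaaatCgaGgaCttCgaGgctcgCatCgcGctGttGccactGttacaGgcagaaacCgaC
NDUFAF3: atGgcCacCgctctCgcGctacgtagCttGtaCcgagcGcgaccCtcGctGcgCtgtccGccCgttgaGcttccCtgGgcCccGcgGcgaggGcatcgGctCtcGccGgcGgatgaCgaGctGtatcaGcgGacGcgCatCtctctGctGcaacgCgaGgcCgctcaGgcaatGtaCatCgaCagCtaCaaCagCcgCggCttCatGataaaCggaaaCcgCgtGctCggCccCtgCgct

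In the stretches printed, capitals ended 28 of 58 codons in ATP5MJ, 34 of 63 in COX7C, 26 of 51 in ATP5F1E and 27 of 80 in NDUFB3. They ended 67 of 74 codons in NDUFAF8, 59 of 69 in COX8A, and 61 of 80 in both NDUFA13 and NDUFAF3. The genes lie, in GRCh38, at chr14:103912288-103928269 on the minus strand (ATP5MJ), chr5:86617904-86620962 on the plus strand (COX7C), chr20:59025467-59032382 on the minus strand (ATP5F1E) and chr2:201071433-201085750 on the plus strand (NDUFB3). NDUFAF8 lies at chr17:81239239-81241281, COX8A at chr11:63974607-63976543, NDUFA13 at chr19:19515736-19529054 and NDUFAF3 at chr3:49020459-49023495, all on the plus strand.

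Ribosome occupancy of the structural subunits was far above that of a typical gene. RPF level per kb of CDS, the deposited log2 value minus the log2 of the CDS length in kb, was compared in uninduced shCTRL cells. Its median was 12.27 in complex IV, 12.03 in complex III, 11.52 in complex V, 11.44 in complex I and 11.05 in complex II. The NDUFAF factors, which help to build complex I and leave it afterwards, had a median of 7.76, and all genes of the RPF table had 6.55. Of 87 members with a CDS 86 lay above the median of all genes, with NDUFAF6 below it at 6.15 ± 0.15 (SD, n = 4). These levels rest on one transcript per gene from an older annotation than the authors used, and the shrinkage of regularized values narrows differences at low counts.

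Levels also differed within complexes. COX6B1, a subunit on the intermembrane side of complex IV, was the highest member at 14.53 ± 0.16 per kb, and COX7A2L, which joins complexes into supercomplexes, stood at 10.46 ± 0.30. COX7B, at 10.89 ± 0.29, was matched to a transcript with a CDS of only 120 bases, which raises its value per kb, so the lowest of complex IV is not given. In complex I NDUFA4 stood at 13.87 ± 0.42. The large iron-sulphur subunit NDUFS1 (8.27 ± 0.27) and NDUFV3 (8.29 ± 0.11), a part of the NADH-oxidising module, were the lowest and did not differ beyond their spread. NDUFV3 was matched to a CDS of 1422 bases, against a median of 414 in complex I, and its value per kb rests on that transcript. SDHD, a membrane anchor, was the highest of complex II at 11.99 ± 0.13, and the flavoprotein SDHA differed from the iron-sulphur subunit SDHB by -1.79 ± 0.10. In complex III UQCRQ (12.88 ± 0.21) was the highest and the core protein UQCRC2 (8.51 ± 0.41) the lowest. UQCRC1 and the Rieske protein UQCRFS1 differed by 0.34 ± 0.36, within the spread.

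Complex V carries several α and β subunits around a single γ subunit. Per kb the β gene ATP5F1B lay above the γ gene ATP5F1C by 2.23 ± 0.25 (SD, n = 4), whereas the α gene ATP5F1A lay below ATP5F1C by -0.55 ± 0.23 and below ATP5F1B by -2.78 ± 0.32. ATP5MC1, ATP5MC2 and ATP5MC3 encode the same mature ring subunit behind different import signals. ATP5MC2 and ATP5MC3 both stood at 13.01 per kb, with a difference of 0.00076 ± 0.49 that is within the spread, and ATP5MC1 lay below ATP5MC2 by -1.49 ± 0.27. ATP5MF-PTCD1, a read-through gene that can share reads with ATP5MF, was the lowest of the complex at 9.88 ± 0.20. COX4I2, COX7A1 and NDUFA4L2, the tissue- or hypoxia-linked paralogues of COX4I1, COX7A2 and NDUFA4, were not analysed here.

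After shEIF2B1 the RPFs of 21 of 90 members fell and those of 9 rose (limma, Benjamini-Hochberg adjusted p below 0.1 over the whole table). These shares, 23.3% lower and 10% higher, stand beside 15.3% lower and 12% higher among all genes. The median response was -0.14 against -0.01 for all genes, and 57 of 90 members lay below 0. By week the member median was -0.04, -0.03, -0.31 and -0.02, beside 0.004, -0.03, -0.003 and -0.03 for all genes. The shift was thus largest in week 3, and in weeks 2 and 4 the members lay close to all genes. Of the 30 that passed, 27 moved one way in all 4 weeks, but the calls were made on these same weeks, which favours such agreement. Complex V held the most falls, 9 of 19 with 1 rise and a median of -0.32. Complex I had 5 falls and 6 rises of 39 (median -0.03), the NDUFAF factors 2 and 2 of 8 (median -0.23), complex III 3 falls of 9 (median -0.16) and complex IV 2 falls of 11 (median -0.07). None of the 4 complex II genes passed (adjusted p 0.245 to 0.620). The call rule depended on the block: with no term for the week, 0 of 90 members passed, and the adjusted p of the 30 was 0.621 to 0.697. It passed 15 members without week 1 and 16 without week 3. The share of all genes is not given for these fits, so their counts are not read as particular to the members. Of the 30, ATP5F1D, ATP5F1E, ATP5PO, NDUFAF3, NDUFAF8, NDUFC1, NDUFS3 and NDUFS5 did not pass in the comparison within the shEIF2B1 line alone.

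**Figure D1:**
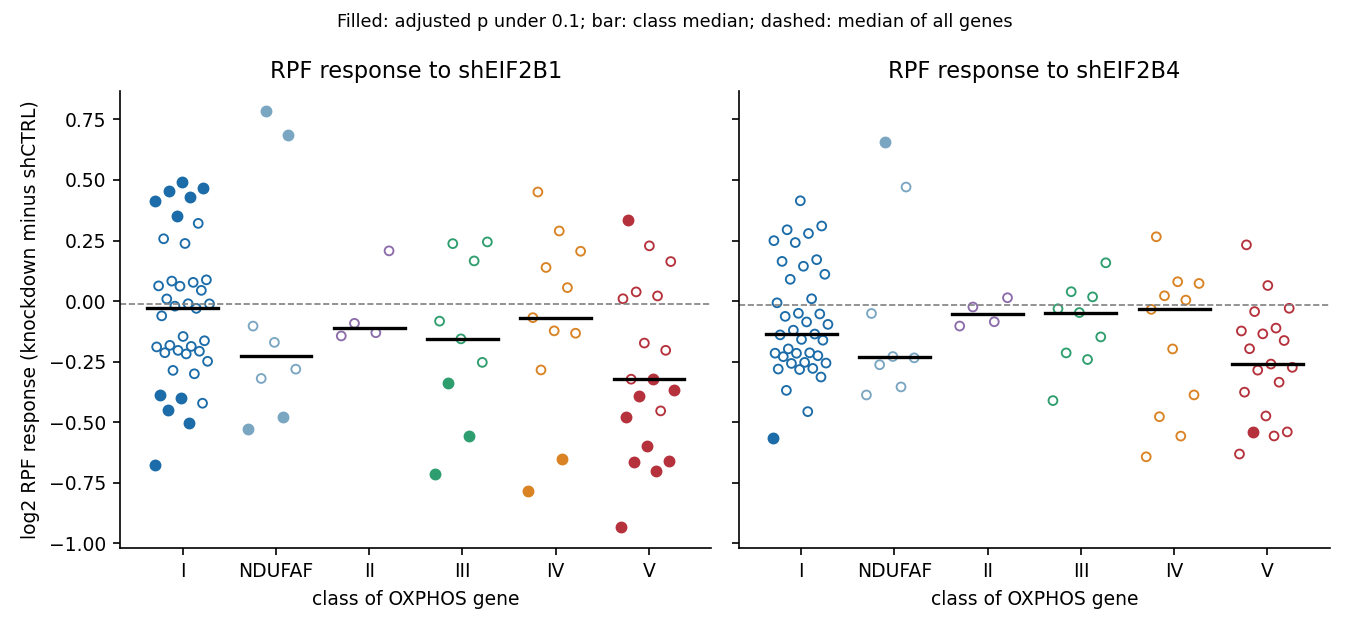
RPF response (log2, change on DOX in the knockdown line minus that in shCTRL) of the 90 members by class, after shEIF2B1 (left) and shEIF2B4 (right). Filled points passed the test, bars are class medians and the dashed line is the median of all genes; complex V has 9 filled points below 0 on the left and 1 on the right.

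In complex V the falls ran through several parts of the enzyme. The peripheral stalk holds the F1 head in place while the rotor turns, and 3 of its 4 genes fell. ATP5PB, its b subunit (chr1:111448864-111462773, plus strand), read 9.46, 10.59, 9.54 and 10.61 in RPFs of weeks 1 to 4 in -DOX shEIF2B1 cells and 8.92, 9.87, 9.10 and 10.05 in +DOX cells. In shCTRL the values were 8.82, 9.86, 8.86 and 9.90 in -DOX and 8.91, 9.59, 9.24 and 10.12 in +DOX. Every week of the knockdown line was lower with DOX although the 4 weeks of each condition overlapped, while shCTRL moved up in 3 weeks and down in week 2. The response was -0.67 (SE 0.14, adjusted p = 0.00357, limma).

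ATP5PF, coupling factor 6 of the same stalk (chr21:25716503-25735673, minus strand), read 9.66, 10.31, 9.62 and 10.57 in -DOX and 9.04, 9.92, 9.34 and 10.46 in +DOX shEIF2B1 cells. Its shCTRL values were 8.95, 9.72, 9.16 and 9.96 in -DOX and 9.10, 10.04, 9.60 and 10.29 in +DOX. The gene went down in all 4 weeks of the knockdown line and up in all 4 weeks of shCTRL, and its response of -0.66 (SE 0.13, adjusted p = 0.00285, limma) combines both. Part of it therefore lay in the control: the rise in shCTRL alone was 0.31 (SE 0.09, adjusted p = 0.0729, limma). ATP5PO, the stalk's link to the F1 head, fell by 0.37 (adjusted p = 0.0532), from a change of -0.14 within shEIF2B1 (adjusted p = 0.270, lower in 2 of 4 weeks) and 0.22 in shCTRL, and lost its call without week 1, 3 or 4, and ATP5PD gave -0.20 (adjusted p = 0.290).

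In the membrane part ATP5MJ, a small proteolipid at the base of the enzyme, had the lowest response of all members. Its -DOX values in shEIF2B1 cells were 8.91, 9.10, 9.01 and 9.87 and its +DOX values were 7.94, 9.10, 7.68 and 9.53, against 8.08, 9.19, 8.18 and 9.28 and 8.12, 9.61, 8.68 and 9.40 in shCTRL. The knockdown line was well lower with DOX in weeks 1 and 3, little changed in week 2, and the groups overlapped. The response was -0.93 (SE 0.24, adjusted p = 0.0116, limma), and the call was lost without week 3.

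The ring subunit genes split. ATP5MC3 fell by 0.60 (SE 0.18, adjusted p = 0.0279), ATP5MC2 gave -0.17 (adjusted p = 0.434) and ATP5MC1 0.23 (adjusted p = 0.213). ATP5MF, an f subunit of the membrane part, fell by 0.48. In the F1 head and its central stalk ATP5F1E (ε) fell by 0.70, ATP5F1A (α) by 0.39 (adjusted p = 0.0982) and ATP5F1C (γ) by 0.32 (adjusted p = 0.0589), whereas ATP5F1D (δ) rose by 0.33 (adjusted p = 0.0823) and ATP5F1B (β), which holds the catalytic sites, gave 0.02. ATP5IF1, the inhibitor that blocks ATP hydrolysis, gave -0.32 (adjusted p = 0.151).

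In complex IV the 2 falls were COX7B and COX7C, both small accessory subunits. COX7B read 8.16, 8.80, 8.22 and 9.05 in -DOX and 7.59, 8.43, 7.41 and 8.78 in +DOX shEIF2B1 cells. In shCTRL it read 7.66, 8.03, 7.52 and 8.12 in -DOX and 7.79, 8.07, 7.89 and 8.70 in +DOX. All 4 weeks went down in the knockdown line and up in shCTRL, and the response was -0.79 (SE 0.17, adjusted p = 0.00449, limma). COX7C fell by 0.65 (SE 0.20, adjusted p = 0.0305), from a change of -0.31 within shEIF2B1, lower in 2 of 4 weeks, and 0.35 in shCTRL. Its call was lost without week 3. COX4I1 gave 0.06, COX6B1 -0.07, COX7A2 -0.28 and COX7A2L 0.21, none of which passed.

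In complex III UQCRC2 (core protein) fell by 0.56 (SE 0.14, adjusted p = 0.00909) and UQCRFS1, the Rieske iron-sulphur protein, by 0.34 (adjusted p = 0.0654), whereas UQCRC1 gave 0.24 (adjusted p = 0.176). UQCRC2 values were 9.06, 9.58, 9.07 and 9.50 in -DOX against 8.66, 9.13, 8.91 and 9.04 in +DOX shEIF2B1 cells, lower with DOX in each week. UQCRHL fell by 0.71, but 272 of the 276 bases of its CDS (98.6%) equal those of UQCRH, which gave 0.24, so short fragments of one can be assigned to the other and both values are uncertain. In complex II the responses were -0.14 for SDHA, -0.09 for SDHB, -0.13 for SDHD and 0.21 for SDHC.

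Complex I moved both ways. NDUFB3, an accessory subunit of the membrane arm, fell by 0.67 (SE 0.17, adjusted p = 0.0101), with -DOX values of 9.87, 9.84, 9.88 and 10.29 and +DOX values of 8.85, 9.64, 8.96 and 9.97 in shEIF2B1 cells. NDUFA1, NDUFAB1 (the acyl carrier protein), NDUFS5 and NDUFV2 (NADH module) fell by 0.50, 0.45, 0.40 and 0.39. The rises were NDUFA13 (0.49), NDUFS8 (0.47), NDUFS7 (0.46), NDUFS3 (0.43), NDUFA7 (0.41) and NDUFC1 (0.35). NDUFS3, NDUFS7 and NDUFS8 are core subunits of the module that reduces ubiquinone. In the NADH module NDUFV1 gave 0.06 and NDUFS1 -0.30 (adjusted p = 0.158), and NDUFA4 gave -0.42 (adjusted p = 0.122).

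NDUFA13, an accessory subunit that anchors the arms of complex I to each other, rose within the knockdown line itself. Its RPF values were 11.67, 11.11, 11.65 and 11.10 in -DOX and 12.25, 11.80, 11.96 and 11.57 in +DOX shEIF2B1 cells, against 12.11, 11.62, 11.999 and 11.48 in -DOX and 11.97, 11.83, 12.01 and 11.48 in +DOX shCTRL cells. Each week of shEIF2B1 was higher with DOX, and shCTRL changed by 0.02. The response was 0.49 (SE 0.12, adjusted p = 0.0116, limma).

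The assembly factors NDUFAF3 and NDUFAF8 gave the largest positive responses of the members, and here the change lay in the control. NDUFAF3 acts with NDUFAF4 on an early intermediate of complex I, and NDUFAF8 is the partner of NDUFAF5. In shCTRL NDUFAF3 RPFs were 9.88, 9.45, 9.81 and 9.29 in -DOX and 9.23, 8.74, 8.95 and 8.49 in +DOX, lower with DOX in every week and without overlap between the 4 and 4 values. In shEIF2B1 cells they were 9.57, 8.95, 9.53 and 8.97 in -DOX and 9.77, 9.29, 9.04 and 9.05 in +DOX, with overlap. The response of 0.78 (SE 0.15, adjusted p = 0.00208, limma) thus set a change of 0.03 in the knockdown line against -0.75 in shCTRL (SE 0.09, adjusted p = 0.00338).

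NDUFAF8 followed the same form, with 6.58, 5.996, 6.58 and 5.84 in -DOX and 5.89, 5.46, 5.76 and 5.18 in +DOX shCTRL cells. In shEIF2B1 cells it read 6.07, 5.50, 5.82 and 5.50 in -DOX and 6.10, 5.45, 5.93 and 5.46 in +DOX, with no week moving by more than the spread between weeks. The response was 0.69 (SE 0.14, adjusted p = 0.00340), from 0.01 within shEIF2B1 and -0.67 in shCTRL. NDUFS3 likewise changed by -0.14 in the knockdown line and by -0.57 in shCTRL, so without subtraction of shCTRL its sign was the opposite of its response. NDUFAF4 and NDUFAF7, a methyltransferase, fell by 0.53 and 0.48 after shEIF2B1, and NDUFAF1, NDUFAF2, NDUFAF5 and NDUFAF6 gave -0.32 to -0.10. The NDUFAF factors split along GC3: NDUFAF8 (90.5%) and NDUFAF3 (70.7%) rose, and the other 6, with GC3 of 38.8 to 44.4%, all lay below 0.

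**Figure D2:**
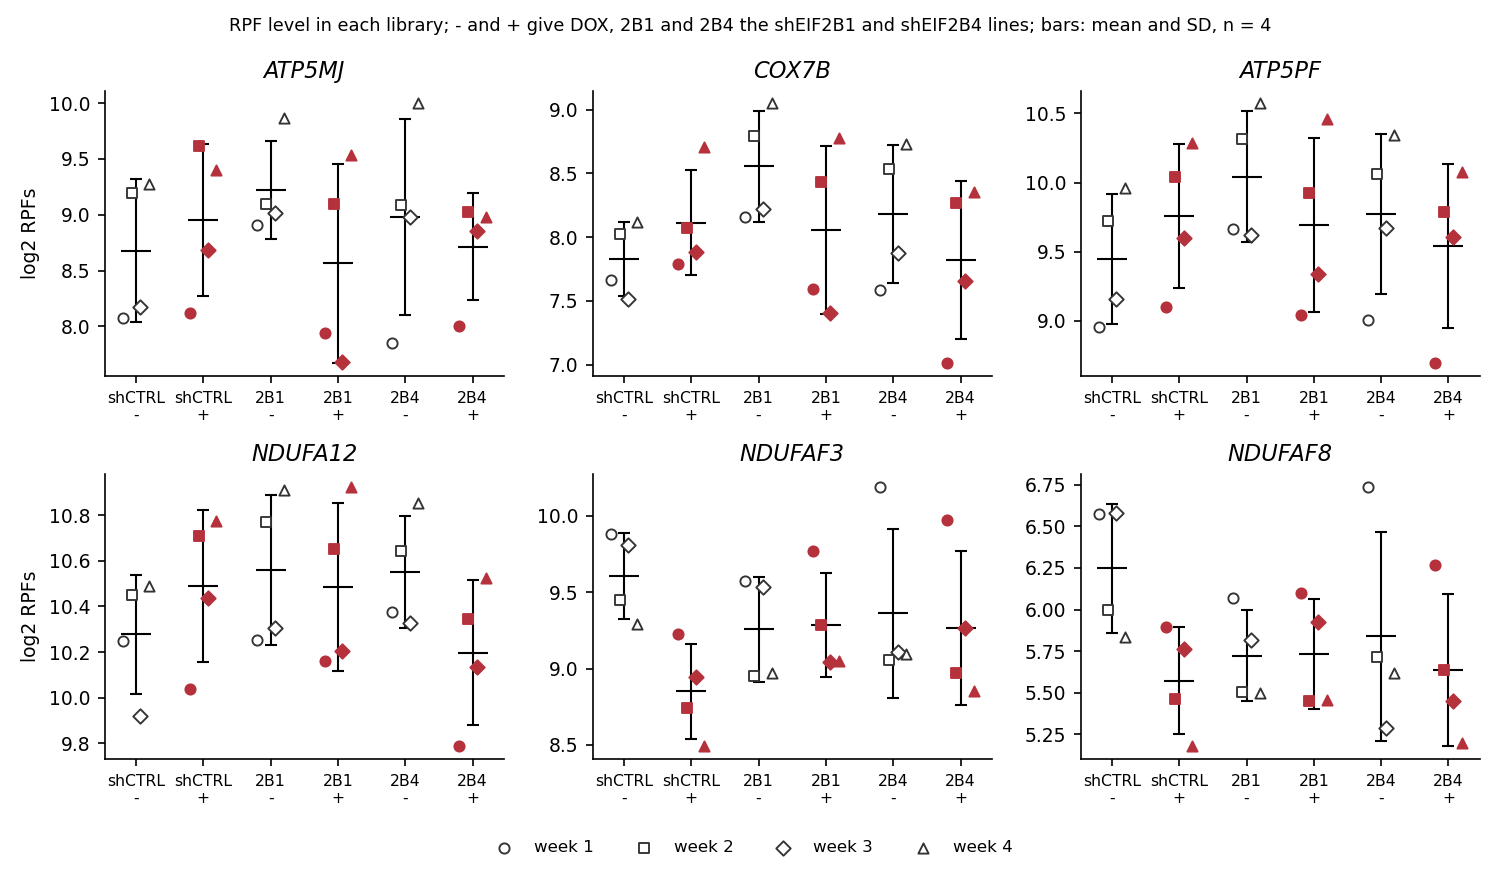
RPF level (log2) of ATP5MJ, COX7B, ATP5PF, NDUFA12, NDUFAF3 and NDUFAF8 in each of the 24 libraries, by line and DOX; symbols give the week and bars the mean and SD of 4 weeks. NDUFAF3 and NDUFAF8 drop with DOX in shCTRL, from means of 9.61 to 8.85 and 6.25 to 5.57, whereas COX7B drops in shEIF2B1, from 8.56 to 8.05.

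The shCTRL line itself changed on induction for 8 of 90 members in RPFs (background 9.85%) and 4 of 91 in total RNA (background 4.44%). In RPFs NDUFAF3, NDUFAF8, NDUFS3 and ATP5F1D fell, and ATP5F1E, ATP5MK, COX7C and ATP5PF rose by 0.31 to 0.56. In total RNA NDUFS3, NDUFAF3, NDUFAF8 and UQCRQ fell by 0.46, 0.45, 0.34 and 0.29 (limma, adjusted p 0.0293 to 0.0910). These counts moved with single weeks: without week 1 they were 22 in RPFs and 17 in total RNA, while in RPFs 1 member passed without week 2, and in both measures none passed without week 3 or week 4. For the fits without a week the share of all genes is not given. Each response subtracts these shCTRL changes, so the values share libraries. Side by side, the shCTRL change and the shEIF2B1 response in RPFs were 0.56 and -0.70 for ATP5F1E, 0.35 and -0.65 for COX7C, and -0.27 and 0.33 for ATP5F1D.

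After shEIF2B4 3 of 90 members passed in RPFs, beside 2.75% of all genes: NDUFA12 and ATP5PF lower and NDUFAF3 higher. The median response was again -0.14 (all genes -0.02), and 65 of 90 lay below 0. By week the member median was 0.002, -0.17, -0.008 and -0.33, beside -0.01, -0.02, 0.003 and -0.03 for all genes, so the shift lay in weeks 2 and 4. The class medians were -0.26 for complex V, -0.23 for the NDUFAF factors, -0.14 for complex I and -0.05 to -0.03 for complexes II, III and IV. At an unadjusted p below 0.05 there were 20 members, 17 of them lower, beside 1749 of 11145 genes in either direction. The 3 calls depended on single libraries, and the share of all genes is not given for the fits that follow. None passed without the uninduced shEIF2B4 library of week 3, where the adjusted p was 0.122 for NDUFA12, 0.132 for ATP5PF and 0.178 for NDUFAF3, and none passed without week 2, week 3 or week 4, whereas 20 passed without week 1.

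NDUFA12, an accessory subunit of complex I (chr12:94897055-95003770, minus strand), read 10.38, 10.64, 10.33 and 10.85 in -DOX and 9.79, 10.35, 10.13 and 10.53 in +DOX shEIF2B4 cells. Its shCTRL values were 10.25, 10.45, 9.92 and 10.49 in -DOX and 10.04, 10.71, 10.44 and 10.77 in +DOX. Every week was lower with DOX in the knockdown line, and the response was -0.56 (SE 0.16, adjusted p = 0.0850, limma). ATP5PF gave -0.54 (SE 0.14, adjusted p = 0.0754). NDUFAF3 gave 0.66 (SE 0.18, adjusted p = 0.0861), from -0.10 within the shEIF2B4 line and the same shCTRL fall of -0.75. COX7B and ATP5PB gave -0.64 and -0.56 and did not pass (adjusted p = 0.124 and 0.142).

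The RPF responses of the 2 knockdowns were compared directly in a fit of all 24 libraries. No member passed in limma, beside 0.00897% of all genes, and the lowest adjusted p was 0.746. At an unadjusted p below 0.05 there were 5 of 90, all higher after shEIF2B1, beside 713 of 11145 genes. The largest of those 5 differences were COX6C (0.43), ATP5MC1 (0.39) and NDUFC2-KCTD14 (0.39), a read-through gene that can share reads with NDUFC2. None passed without the shEIF2B4 library that stood apart. In total RNA no member passed either, beside 0.1% of all genes. There 8 of 91 had an unadjusted p below 0.05, beside 1528 of 11947 genes. The smaller number of calls after shEIF2B4 is therefore not a tested difference between the knockdowns.

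Total RNA of the members showed no response that passed in limma. After shEIF2B1 0 of 91 passed, beside 3.47% of all genes, and after shEIF2B4 0 of 91, beside 5.4%. At an unadjusted p below 0.05 there were 5 members after shEIF2B1, beside 1825 of 11947 genes. After shEIF2B4 there were 12, all lower, beside 2057 of 11947 genes. Median responses were -0.10 and -0.08, against -0.0038 and 0.0018 for all genes, with 71 and 70 of 91 members below 0. The smallest adjusted p after shEIF2B1 was that of COX7A2L (0.37, SE 0.12, adjusted p = 0.132). SDHA gave -0.27 and -0.38 (adjusted p = 0.325 and 0.140).

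The picture was different within each line, where induced were compared with uninduced cells without subtracting shCTRL. In total RNA 28 of 91 members (30.8%) fell in shEIF2B1 cells, beside 16.8% of all genes, and 37 of 91 (40.7%) fell in shEIF2B4 cells, beside 16.3% of all genes. One member rose in each line, beside 17.5% of all genes higher in shEIF2B1 and 18.1% in shEIF2B4. These counts needed no term for the week, being 30 and 37 falls without the block, beside 16.9% and 16.1% of all genes lower. When a week was left out, falls in shEIF2B1 ranged from 11 (without week 3) to 45 (without week 2), beside 9.98% and 19.8% of all genes. In shEIF2B4 they ranged from 20 (without week 4) to 38 (without week 1), beside 10.2% and 16.5%. The median change was -0.17 in shEIF2B1 and -0.16 in shEIF2B4, against -0.08 in shCTRL, where 72 of 91 also lay below 0. Of the falls 18 were found in both knockdown lines, which is 64.3% of those in shEIF2B1 and 48.6% of those in shEIF2B4, and these 2 comparisons share no library. The overlap of falls among all genes is not given here, so this overlap is not read as particular to the members. The total RNA of shCTRL thus moved the same way to a smaller extent, and the part of DOX itself in the within-line changes was not tested.

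ATP5MC1 was among the 18. Its total RNA read 8.07, 8.21, 8.44 and 8.25 in -DOX and 7.67, 7.91, 7.91 and 7.78 in +DOX shEIF2B1 cells, and 8.32, 8.37, 8.17 and 8.18 in -DOX and 7.87, 7.78, 7.84 and 7.57 in +DOX shEIF2B4 cells. The groups did not overlap in either line, with changes of -0.42 (adjusted p = 0.00377) and -0.50 (adjusted p = 0.000707, limma). In shCTRL it went from a mean of 8.35 ± 0.26 to 8.11 ± 0.18. The lowest change in shEIF2B1 was that of NDUFC2 (-0.62), which can share reads with the read-through gene NDUFC2-KCTD14. The 4 +DOX values of NDUFC2, 9.78, 8.53, 9.53 and 9.82, were spread by week 2. The lowest in shEIF2B4 was NDUFAF8 (-0.61), from 8.73 ± 0.24 to 8.12 ± 0.11.

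COX7A2L was the one member whose total RNA rose in both knockdown lines. It read 10.30, 10.19, 10.51 and 10.27 in -DOX and 10.57, 10.63, 10.71 and 10.81 in +DOX shEIF2B1 cells, without overlap, a change of 0.36 (SE 0.10, adjusted p = 0.0143, limma). In shEIF2B4 cells it went from 10.34, 10.27, 10.27 and 10.53 to 10.61, 10.57, 10.65 and 10.51, higher in 3 of 4 weeks, a change of 0.23 (SE 0.09, adjusted p = 0.0691). In shCTRL its means were 10.41 ± 0.13 in -DOX and 10.40 ± 0.13 in +DOX cells.

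**Figure D3:**
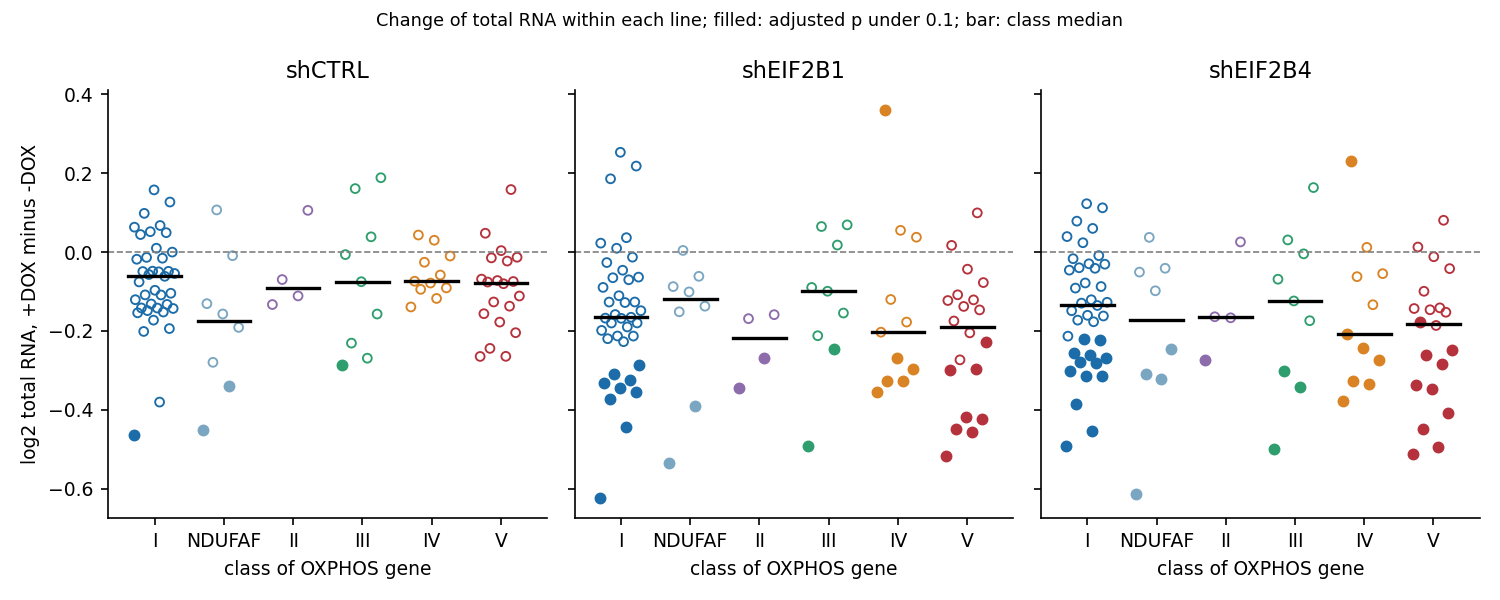
Change of total RNA on induction (log2, +DOX minus -DOX) of the 91 members within shCTRL, shEIF2B1 and shEIF2B4, by class; filled points passed the test and bars are class medians. Most points lie below 0 in each panel, with 4 filled below 0 in shCTRL, 28 in shEIF2B1 and 37 in shEIF2B4, and COX7A2L is the filled point above 0 in complex IV.

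Within-line RPF changes gave 32 falls (35.6%) and 8 rises (8.89%) of 90 in shEIF2B1, beside 26.7% of all genes lower and 22.7% higher. In shEIF2B4 they gave 13 falls (14.4%) and 1 rise (1.11%), beside 12% of all genes lower and 11.8% higher. Without week 3, which holds the library that stood apart, shEIF2B4 had 12 falls and no rise, beside 5.75% of all genes lower. It had 1 fall without week 2 or without week 4, beside 3.8% and 3.36%. Without week 1 it had 22 falls and 3 rises, beside 21.7% of all genes lower. In shEIF2B1 there were 20 falls and 14 rises of 90 without week 3, beside 25.6% of all genes lower. The falls then no longer exceeded the share of all genes. With no term for the week, 2 falls were left in shEIF2B1 and none in shEIF2B4, beside 5.86% and 0.0628% of all genes lower. ATP5MF, ATP5PB, COX7B, NDUFAF4, NDUFAF5, NDUFV2 and NDUFV3 fell in both lines, 7 of 32 (21.9%) and 7 of 13 (53.8%). Here too the overlap among all genes is not given. The single rise in shEIF2B4 was NDUFA13 (0.32, SE 0.11, adjusted p = 0.0662), which had also risen within shEIF2B1 (0.51, adjusted p = 0.000156). COX8A rose within shEIF2B1 by 0.41 (adjusted p = 0.00169) in RPFs while its total RNA fell by 0.33 (adjusted p = 0.0331).

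Translation efficiency was taken as log2 TE, RPFs minus total RNA of the same lysate. After shEIF2B1 5 of 90 members fell (5.56%, background 4.13%) and 2 rose (2.22%, background 2.97%). The falls were UQCRHL (-0.88), ATP5MJ (-0.77), ATP5PB (-0.57), ATP5PF (-0.57) and NDUFAF2 (-0.48), and the rises were COX8A (0.66) and NDUFS8 (0.57), with adjusted p of 0.0503 to 0.0890 (limma). UQCRHL keeps the uncertainty given above. Each of the 7 moved one way in 4 of 4 weeks, which calls made on these same weeks favour. However, no member passed without week 1, without week 3 or without week 4, and 17 did without week 2. For these fits the share of all genes is not given. The median log2 TE response was -0.04 (all genes -0.02). After shEIF2B4 0 of 90 passed in limma (background 0.0923%), with a median of -0.07, and 0 passed without the library that stood apart. At an unadjusted p below 0.05 there were 14 members, beside 1848 of 10836 genes.

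The 2 knockdown lines already differed from shCTRL before induction. In RPFs of uninduced cells 24 members were lower and 26 higher in shEIF2B1 than in shCTRL (55.6% in all, background 45.9%). In shEIF2B4 10 were lower and 8 higher (20%, background 26.6%), where the median of all genes was -0.13 and libraries centred on their median gave 1 lower and 8 higher. Without its library of week 3 that stood apart 5 members passed. Neither for that fit nor for the centred libraries is the share of all genes given. ATP5F1E (0.76), COX7B (0.72) and ATP5PB (0.69) started higher in shEIF2B1, and COX8A (-0.64), NDUFAF8 (-0.53) and NDUFC1 (-0.49) started lower. The mean of ATP5PB, for example, was 9.36 in uninduced and 9.46 in induced shCTRL cells, 10.05 in uninduced and 9.48 in induced shEIF2B1 cells. The targeted genes were themselves lower in RPFs of their uninduced lines than in uninduced shCTRL, EIF2B1 with -0.45 (SE 0.09, adjusted p = 0.00188) in shEIF2B1 and EIF2B4 with -0.42 (SE 0.14, adjusted p = 0.0482) in shEIF2B4 (limma). The uninduced libraries enter both comparisons, so no relation between them is drawn.

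The direction of an RPF response among the members followed GC3. Across the 87 members with a CDS the response to shEIF2B1 correlated with GC3 with r = 0.67, beside r = 0.61 over all 10848 genes, and the response to shEIF2B4 with r = 0.62, beside 0.52. These are descriptions across genes that share the same libraries, and genes are not independent replicates. Members that fell after shEIF2B1 had GC3 of 35.7 to 71.3% (median 48.3%), those that rose had 64.0 to 90.5% (median 81.9%), and the rest had a median of 58.2%. Correlations with the log2 length of the CDS (0.09 and 0.15) and of the 5′ UTR (0.01 and 0.10) were weak.

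Members were also read against genes of like GC3. All genes with a CDS were put in 4 bins of 2712 by GC3. In the lowest bin 7 of 15 members fell, beside 40.4% of all its genes, and in the next bin 13 of 37 fell, beside 16.3%. In the third bin 1 fell and 4 rose of 21, beside 3.39% lower and 14.9% higher among all its genes, and in the highest bin 5 of 14 rose, beside 27.9%. The bin after the lowest held most of the falling genes of complex V. GC3 moved with other contrasts too: r was -0.49 for the change of shCTRL on induction (all genes -0.26), and -0.73 and -0.59 for the uninduced shEIF2B1 and shEIF2B4 lines against shCTRL (all genes -0.79 and -0.73). The part of library composition by week and line in these values was not tested. When the GC3 trend of each library was removed, 12 of 87 members passed after shEIF2B1, 9 lower and 3 higher, and 11 of the 30 kept their call: ATP5MF, ATP5MJ, ATP5PB, ATP5PF, COX7B, COX7C, NDUFA1, UQCRHL, NDUFAF3, NDUFAF8 and NDUFS3. The share of all genes that passed with the trend removed is not given here, so these counts are not read as particular to the members. With the trend removed ATP5PB gave -0.52 (adjusted p = 0.0167) and NDUFAF3 0.64 (adjusted p = 0.0116, limma). After shEIF2B4 NDUFAF3 alone passed (0.55, adjusted p = 0.0598), and no log2 TE response did. The log2 TE responses after shEIF2B1 were then -0.86 for UQCRHL, -0.65 for ATP5MJ and -0.45 for ATP5PB (adjusted p = 0.142, 0.209 and 0.204, limma).

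**Figure D4:**
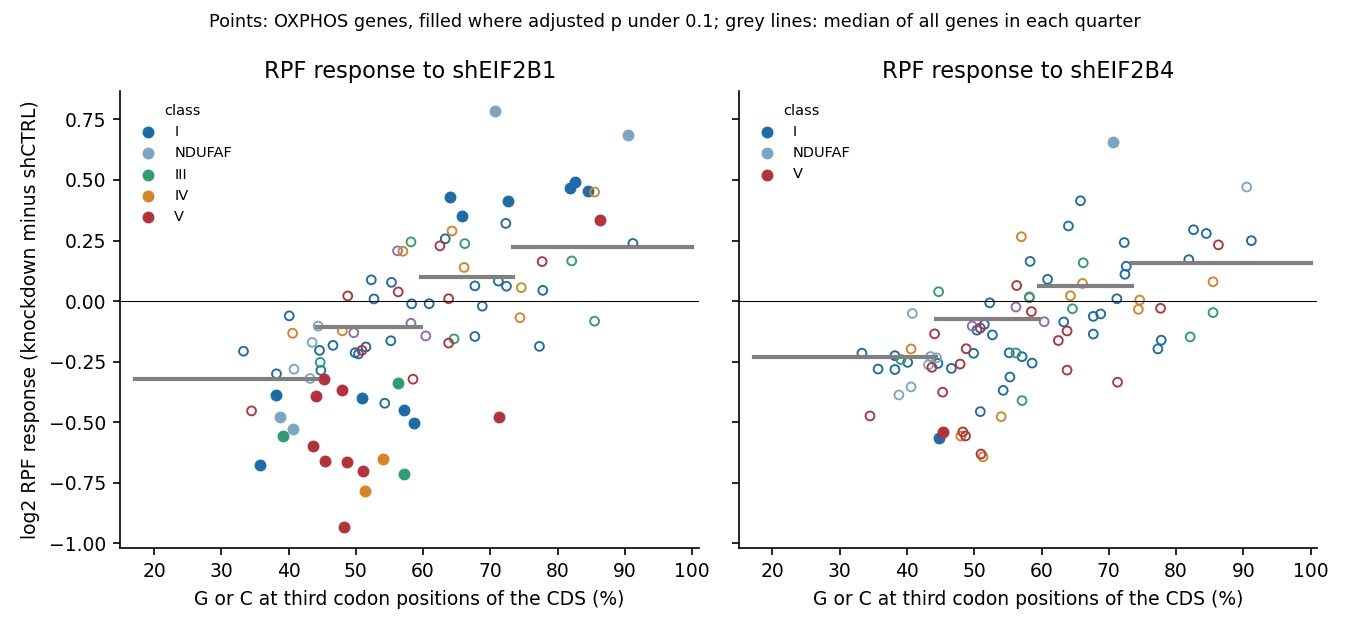
RPF response (log2) against CDS GC3 (%) for the 87 members with a CDS, after shEIF2B1 (left) and shEIF2B4 (right). Members with low GC3 lie mostly below 0 and those with high GC3 above it, with r = 0.67 and r = 0.62.

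Start-site and promoter letters were searched as description. The CDS began with ATGGCGGC in 11 of 87 members (12.6%), beside 4.13% of all genes with a CDS, among them NDUFA13, NDUFS3, UQCRC1 and SDHB, and none in complexes IV and V. Their median RPF response to shEIF2B1 was -0.06, beside -0.17 for the other 76. Of the 11, 0 fell and 2 rose, beside 15.3% lower and 12% higher among all genes. The 11 and the 76 were not matched for GC3, and its part in the difference was not tested. In RefSeq promoters (GRCh38.p14, 250 bases before to 50 after the start, both strands) of 74 matched members, the NRF1 core GCGCATGC, shortened after a longer form of the motif had been searched, lay in 15 (20.3%), among them ATP5F1C, ATP5PF, NDUFA8, NDUFB4 and SDHD, beside 5.76% of 9027 promoters. The ETS motif CCGGAAG lay in 21 (28.4%), beside 20.5%, and ATP5PF, COX5B, SDHB and SDHD were among the members holding both. NRF1 and the ETS factor GABP are known regulators of OXPHOS genes.

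Genes around the respiratory chain were counted from lists of known factors. Of 52 other partners and assembly factors 10 fell and 2 rose in RPFs after shEIF2B1, beside 15.3% lower and 12% higher among all genes. The falls included COX20 (-0.72), COX10 (-0.60, a heme synthesis enzyme for complex IV), COX17 (-0.50, a copper chaperone), TMEM126B (-0.64, complex I assembly) and CYCS (-0.54, cytochrome c itself). SDHAF1, which helps to insert iron-sulphur clusters into SDHB, rose after both knockdowns, by 0.92 (SE 0.17, adjusted p = 0.00146) and 0.77 (SE 0.18, adjusted p = 0.0464, limma). It was the only one of the 52 to pass after shEIF2B4, where 2.75% of all genes passed. Within shCTRL its RPFs fell by 0.48 on induction (adjusted p = 0.0494). SURF1 rose by 0.37 after shEIF2B1.

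Beside the same 15.3% of all genes lower and 12% higher, 5 of 13 tricarboxylic acid cycle genes fell in RPFs after shEIF2B1: DLD (-0.66), IDH3A (-0.52), CS (-0.41), SUCLA2 (-0.38) and DLST (-0.37). Of 11 regulators of mitochondrial biogenesis 5 fell: MTERF1 (-0.87), GABPA (-0.50), GABPB1 (-0.45), TFB2M (-0.43) and TFB1M (-0.42). In RPFs of uninduced cells 1 of the 11 was lower and 6 higher in shEIF2B1 than in shCTRL, beside 45.9% of all genes in either direction. The 5 that fell were among these calls. GC3 and the fits without a week or the block are not given here for the lists. Of 7 carriers and channels VDAC3 fell (-0.34). None of these 3 lists had a gene that rose, and none had one that passed in RPFs after shEIF2B4. With 2.75% of all genes passing after shEIF2B4, lists this short can hold no call, so this absence is not read as a result. In total RNA OGDH (-0.42) and POLRMT (-0.40), the mitochondrial RNA polymerase, fell after shEIF2B4, where 5.4% of all genes passed. No listed gene around the chain passed in total RNA after shEIF2B1, where 3.47% of all genes did.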

How the data were processed

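RPFs and total cytoplasmic RNA were sequenced from the same 24 lysates. According to the submitters' processing notes and the study's methods, adapters were trimmed with cutadapt 1.18, reads were aligned with Bowtie2 and SAMtools 1.9, total RNA was counted with RSEM, and R 4.3.1 with DESeq2 was used; reads from mitochondrial RNA were removed from RPFs, and the libraries of week 3 joined 2 sequencing runs. The authors deposited regularized log2 counts (RPFs 2.02 to 16.11, total RNA 2.80 to 19.93), not raw counts, so depth per library was unknown, no count model could be run and no counting error is given.

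Each whole table was fitted with limma 3.58.1 (R 4.3.3, lmFit and eBayes with trend) with terms for replicate, shRNA, DOX and shRNA:DOX over the 16 libraries of one knockdown line and shCTRL. Two-sided p-values were adjusted by Benjamini-Hochberg over the table, and a gene was called at an adjusted p below 0.1. Log2 TE was the difference of both log2 values for 10836 genes in both tables. The replicate block follows the study's design, in which a replicate number marks a shared week. Deviations of same-numbered samples correlated with a mean of 0.56 in RPFs (52 of 60 pairs over 0.1) and 0.18 in total RNA (37 of 60), against -0.19 and -0.06 for different numbers. P-values measure the spread between weekly cultures of the same pools.

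CDS features came from GENCODE release 29 (GRCh38), matched by transcript ID without version, and promoters from RefSeq (GRCh38.p14). Gene positions were matched by gene ID without version. The authors' annotation was newer. No protein sequences were used. Figures were drawn with matplotlib 3.10.9 in Python 3.11.15.

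The members, classes and lists were chosen with earlier results of these data known. The naming rule took, per response, the 3 largest rises and falls among called members, the highest and lowest RPF level per kb in each class, the paralogue families, the core subunits and ATP5IF1. The results of 1 gene are not reported here. Every other member named was named after its values were seen. Alternatives left out the block, the shCTRL correction, the lowest 25% of genes, the mean-variance trend or each replicate, centred libraries on their median, or fitted all 24 libraries. Removing the GC3 trend (lowess span 0.3), the week 3 uninduced shEIF2B4 RPF library or 3 genes that can share reads, and the within-line fits without each replicate or the block, were chosen after seeing the data.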

Additional observations from a re-analysis of the deposited data

Results flagged for a closer look

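The median level of each class in each group of 4 libraries was screened for a library far from the other 3, by Dixon's test. Of 84 groups 4 had one, and chance gives about 1 in 20. In RPFs the median of complex V in uninduced shCTRL cells was 10.22 in week 1 and 10.34 in the other weeks (10.3355 to 10.3426). In total RNA the median of complex IV in +DOX shEIF2B1 cells was 10.81 in week 4 against 10.62 to 10.64, and in +DOX shEIF2B4 cells it was 10.61 in week 4 against 10.67 to 10.68. The median of complex V in total RNA of uninduced shEIF2B4 cells was 10.90 in week 4 against 10.73 to 10.75. The causes were not tested.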

How the results depend on the processing

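Of 194 recomputed counts and medians 148 stayed within 1.5 times the count, or within 1 SD of the median, and 46 moved. Calls in RPFs and log2 TE depended on the replicate block. With no replicate block 0 members passed in RPFs after shEIF2B1 (30 with it), after shEIF2B4 (3), on induction of shCTRL (8), in uninduced shEIF2B1 (50) and in uninduced shEIF2B4 (18), 0 in log2 TE after shEIF2B1 (7), and 1 in total RNA of shCTRL (4). Leaving out each replicate in turn gave 15 to 29 members in RPFs after shEIF2B1, 0 to 20 after shEIF2B4, 0 to 22 in shCTRL, 33 to 39 in uninduced shEIF2B1 and 0 to 45 in uninduced shEIF2B4. It gave 0 to 17 in log2 TE after shEIF2B1, 0 to 8 after shEIF2B4, 0 to 2 in total RNA after shEIF2B1 and 0 to 17 in total RNA of shCTRL. With no subtraction of shCTRL 14 members passed in RPFs after shEIF2B4, 29 and 38 in total RNA after shEIF2B1 and shEIF2B4 and 15 in log2 TE after shEIF2B1, the median log2 TE response turned to 0.091 and 0.049, and NDUFS3 after shEIF2B1 (-0.14) and NDUFAF3 after shEIF2B4 (-0.10) reversed in RPFs. One fit of all 24 libraries gave 5 in RPFs after shEIF2B4, 1 in total RNA and 0 in log2 TE after shEIF2B1. Without the GC3 trend 12 and 1 passed in RPFs after shEIF2B1 and shEIF2B4 and 0 in log2 TE after shEIF2B1. Centring libraries gave 9 in uninduced shEIF2B4. Without its week 3 library of uninduced cells 0 passed in RPFs after shEIF2B4 and 5 in uninduced shEIF2B4. Shares of all genes in these settings are not given with these counts, so the counts are not read as particular to the members. Where no construction of the alternative shows it, the cause was not tested. Depth is unknown, and regularized values shrink changes of low genes.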
